A study of Mus musculus with 12 samples.

Results

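Transcripts of 7 genes that are best known from fat cells (Cfd, Adipoq, Retn, Car3, Scd1, Cidec and Plin1) were followed in macrophages sorted from mouse aorta and fat. The genes were chosen by name as a trace of neighbouring or engulfed fat cells, with earlier results of these data known. They are thus not an independent list when set against all genes. They are 7 of the 46517 genes in the deposited count table. Bulk RNA sequencing was done on 12 libraries in 4 groups of 3, all from adult wild type C57/BL6 mice with no treatment named. Flow cytometry took live cells that carried F4/80, CD11b, MerTK, CD64 and CD45 and parted them by surface LYVE-1, a hyaluronan receptor carried by a subset of tissue macrophages. The aortic LYVE1+ and LYVE1- cells came from the aortas of 30 mice, and the fat LYVE1+ and LYVE1- cells from subcutaneous and epididymal fat pads of 20 mice. The 2 fat depots are not kept apart in the labels. Whether each library had its own pool of mice is not in the labels, and p-values here speak only for the spread among these libraries.

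A white adipocyte stores triglyceride in a single large droplet and secretes hormones and complement proteins, the adipokines. Cfd encodes adipsin, the protease complement factor D, and Adipoq encodes adiponectin. Retn encodes resistin, which in the mouse is made mainly by white adipocytes. Car3 is a carbonic anhydrase abundant in fat and slow skeletal muscle. Scd1 is the desaturase that makes oleate, and Cidec (also named Fsp27) and Plin1 are coat proteins of the lipid droplet. Macrophages of fat lie beside these cells and clear dying ones, and macrophages can also make some lipid genes themselves.

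Before any comparison, the letters upstream of the genes are shown for the members that have a RefSeq promoter entry, since several of the genes moved together between tissues. Entries of build GRCm38.p6 were found for 5 of the 7 genes (Cfd, Adipoq, Retn, Cidec and Plin1), with 2 starts for Cidec. The 150 bases before the start are printed 5′ to 3′ on the gene's strand, for Cidec at the outer start, and capitals mark matches to the searched motifs.
Cfd (chr10:79890703-79890852, plus strand): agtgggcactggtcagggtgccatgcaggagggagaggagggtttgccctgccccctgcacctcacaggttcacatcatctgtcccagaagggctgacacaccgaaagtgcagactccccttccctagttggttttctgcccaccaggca
Adipoq (chr16:23146386-23146535, plus strand): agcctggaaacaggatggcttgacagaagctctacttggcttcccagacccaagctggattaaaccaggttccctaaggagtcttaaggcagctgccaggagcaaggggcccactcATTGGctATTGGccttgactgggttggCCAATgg
Retn (chr8:3655620-3655769, plus strand): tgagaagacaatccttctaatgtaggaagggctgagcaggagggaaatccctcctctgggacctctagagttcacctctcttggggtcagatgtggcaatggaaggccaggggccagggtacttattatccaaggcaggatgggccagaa
Cidec (chr6:113435761-113435910, minus strand): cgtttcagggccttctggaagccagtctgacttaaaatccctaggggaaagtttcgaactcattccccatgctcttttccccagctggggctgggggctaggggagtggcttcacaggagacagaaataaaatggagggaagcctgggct
Plin1 (chr7:79732777-79732926, minus strand): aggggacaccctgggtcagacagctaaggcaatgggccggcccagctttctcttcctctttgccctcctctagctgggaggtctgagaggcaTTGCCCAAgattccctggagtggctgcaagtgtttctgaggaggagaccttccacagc
The motifs searched in the 250 bases before each start, on both strands, were TTGCNNAA (known as a C/EBP core), AGGTCA (nuclear receptor half-site), CCAAT (the CCAAT box), TATAAA (the TATA box) and CACGTG (an E-box). Adipoq held CCAAT 3 times within 34 bases of its start, a motif found in 33.8% of 32851 promoters. Plin1 held TTGCNNAA 2 times, at 187 and at 58 bases before the start, and the inner start of Cidec held it once, against 9.56% of all promoters. Cfd, Retn and the outer start of Cidec held none of the 5. No motif was common to the genes.

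Library totals ran from 5049936 to 29792301 counts. The 12 macrophage markers summed to between 22579 and 41441 CPM (the count scaled to the library's total) in every library. The sort marker Lyve1 spanned 2126 to 2792 CPM in aortic LYVE1+ libraries against 876 to 1309.5 in LYVE1-, and 1544 to 2103 in fat LYVE1+ libraries against 233 to 606 in LYVE1-. Both fat libraries numbered 1 stood apart from the other 10. Their mitochondrial share was 8.85% (LYVE1+) and 12.1% (LYVE1-) against 1.79 to 3.2%, and their summed hemoglobin and other red cell transcripts were 25920 and 5271 CPM against at most 1393. The calls of the 7 transcripts and of the gene lists are therefore also given without them. The library names carry 1 of 2 prefixes whose meaning the labels do not give (RMM or RHH). All fat libraries and the aortic LYVE1+ libraries 1 and 2 have RMM, and the other aortic libraries have RHH, so in LYVE1- cells prefix and tissue cannot be told apart within the groups compared.

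Summed, the 7 transcripts were present at low levels in all 12 libraries and were higher in the fat macrophages. Singly, Retn and Plin1 had no count in some libraries. The 7 summed to 16.6 ± 6.59 CPM (SD, n = 3) in aortic LYVE1+ cells, 34.2 ± 16.9 in aortic LYVE1- cells, 156 ± 140 in fat LYVE1+ cells and 179 ± 117 in fat LYVE1- cells. By library the sums were 9.3, 18.3 and 22.2 CPM in aortic LYVE1+ cells and 26.7, 53.5 and 22.2 in aortic LYVE1- cells. In fat they were 317, 69.3 and 80.9 CPM in LYVE1+ cells and 314, 116 and 107 in LYVE1- cells. Every fat library lay above every aortic library, and the fat libraries numbered 1 were 4.22 times (LYVE1+) and 2.82 times (LYVE1-) the mean of the other 2 of their group. Without them the fat means were 75.1 and 111 CPM. Macrophage markers were not level between the tissues: their sum was 40129 to 41441 CPM in aortic LYVE1+ and 30870 to 36546 in aortic LYVE1- libraries, against 23924 to 32519 and 22579 to 30536 in fat. Of the 12 markers 2 were lower in fat on average (4.6% of all genes were), Cx3cr1 (-2.63, adjusted p = 0.000854) and Lyz2 (-0.52, adjusted p = 0.016). The median log2 fold change of the 12 was -0.30. Without both fat libraries numbered 1 the median was -0.10, against -0.04 for all genes. In that fit 2 of the 12 were called lower, as were 1192 of all 14216 genes. The part of this shift in the levels of the 7 transcripts was not tested. In bulk RNA, fewer cells that carry a transcript and less of it per cell cannot be told apart.

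**Figure D1:**
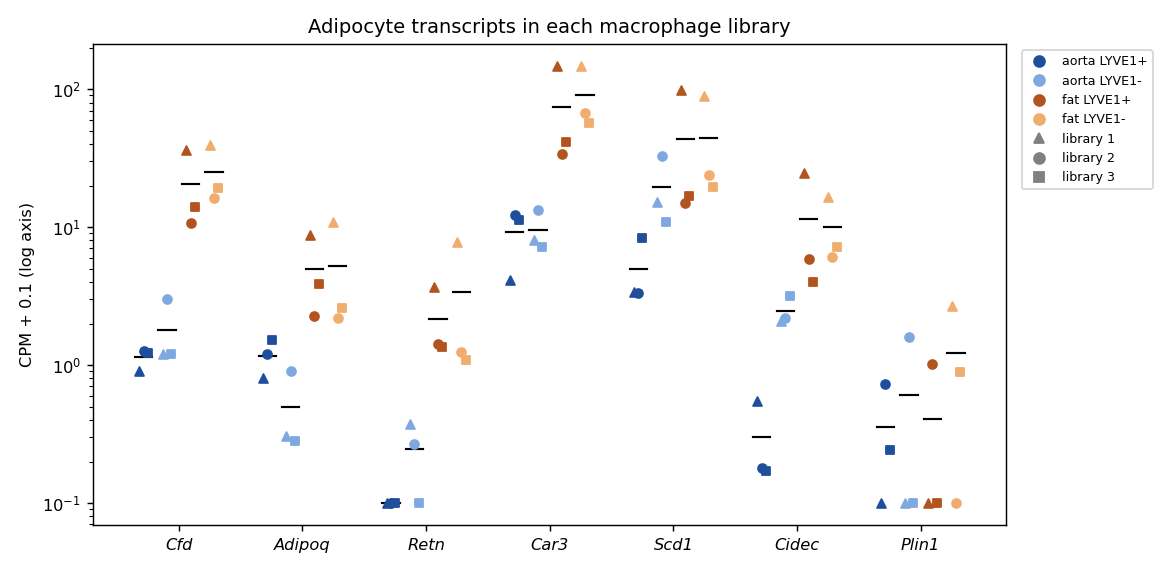
Level of each of the 7 transcripts in the 12 libraries, as CPM + 0.1 on a log axis. Symbols mark the library number, colours the group, and bars the mean of 3. For Cfd, Adipoq, Retn, Car3 and Cidec all 6 fat libraries lie above all 6 aortic ones, while Scd1 and Plin1 overlap.

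The question of the tissue comparison is whether macrophages from fat carry more of these transcripts than macrophages from aorta. Averaged over both sorts, 6 of the 7 were higher in fat (Cfd, Adipoq, Retn, Car3, Scd1 and Cidec) and Plin1 did not pass the test. Among all 14216 genes tested, 3.62% were called higher in this comparison and 8.22% in either direction. The median log2 fold change of the members was 3.13 against 0.01 for all genes tested. Within LYVE1+ cells 4 of 7 were higher (Cfd, Car3, Cidec and Retn; 1.12% of all genes were called higher), with a median of 3.11 against 0.02. Within LYVE1- cells 3 of 7 were higher (Cfd, Car3 and Adipoq; 0.823% of all genes), with a median of 3.24 against 0.00. Setting Retn, which had no count in aortic LYVE1+ cells, to its bound left these medians as they were. No member was called lower in fat, where 4.6% of all genes were on average. For 5 of 7 members every fat library lay above every aortic one, a pattern held by 1.46% of the genes tested. Without both fat libraries numbered 1 the calls were 5 of 7 averaged over the sorts, 5 of 7 in LYVE1+ cells and 2 of 7 in LYVE1- cells. Of all 14216 genes, 944, 370 and 412 were called higher there. With the prefix in the model the calls were 1, 2 and 0 of 7, and 16, 63 and 2 of all genes were higher.

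**Figure D2:**
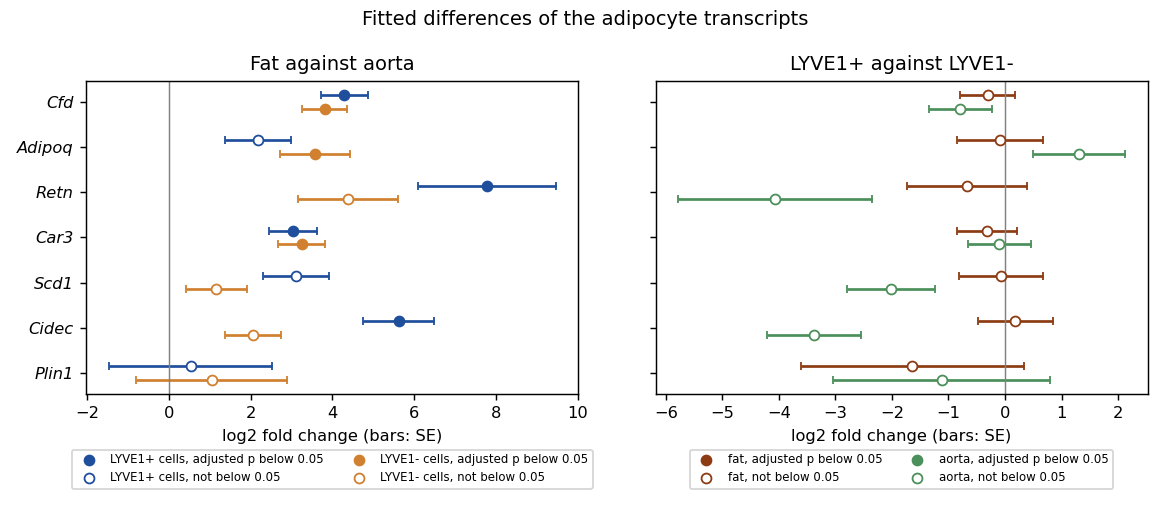
Fitted log2 fold changes with their standard errors for the 7 transcripts, fat against aorta within each sort (left) and LYVE1+ against LYVE1- within each tissue (right). Filled points passed an adjusted p of 0.05. The filled points all lie right of 0 in the left panel, and no point is filled in the right panel.

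Among the secreted factors, Cfd separated the tissues most firmly. Cfd (chromosome 10, 79890853 to 79892655, GRCm38, plus strand) stood at 0.8, 1.17 and 1.13 CPM in the aortic LYVE1+ libraries and at 1.09, 2.92 and 1.1 in the aortic LYVE1- libraries. In fat it stood at 36.2, 10.6 and 14 CPM in LYVE1+ cells and at 39.2, 16 and 19.2 in LYVE1- cells. The lowest fat library was above the highest aortic one. The means were 1.03 ± 0.204 CPM (SD, n = 3) in aorta and 20.3 ± 13.9 in fat for LYVE1+ cells, a ratio of 19.6, and 1.71 ± 1.05 and 24.8 ± 12.6 for LYVE1- cells, a ratio of 14.5. The log2 fold change was 4.29 (SE 0.58, adjusted p = 0.0023) in LYVE1+ cells and 3.81 (SE 0.55, adjusted p = 0.00354) in LYVE1- cells. Averaged over the sorts it was 4.05 (SE 0.40, adjusted p = 8.26e-05). The call of Cfd held in all 12 fits that left out 1 library, in each of the 3 tissue comparisons, and averaged over the sorts also with the prefix in the model (adjusted p = 0.0446). In LYVE1- cells the prefix in the model ended it (4.07, SE 1.06, adjusted p = 0.519).

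Adipoq, the adiponectin gene (chromosome 16, 23146536 to 23158028, plus strand), was low throughout. It stood at 0.7, 1.09 and 1.42 CPM in aortic LYVE1+ cells and at 0.205, 0.806 and 0.184 in aortic LYVE1- cells. In fat it stood at 8.71, 2.16 and 3.78 CPM in LYVE1+ cells and at 10.9, 2.11 and 2.47 in LYVE1- cells. Fat and aorta did not overlap in either sort. The mean was 4.89 CPM in fat against 1.07 in aorta for LYVE1+ cells, a ratio of 4.57 that did not pass the test (log2 fold change 2.18, SE 0.81, adjusted p = 0.199). For LYVE1- cells the ratio of the means was 12.9 (log2 fold change 3.58, SE 0.85, adjusted p = 0.0464), a call that ended in 11 of the 12 fits leaving out 1 library, all but the one without fat LYVE1+ library 1, with adjusted p up to 0.155. Averaged over the sorts, Adipoq was higher in fat (log2 fold change 2.88, SE 0.58, adjusted p = 0.00942), also without both fat libraries numbered 1 (2.00, adjusted p = 0.0301). The prefix in the model ended that call (3.37, SE 1.08, adjusted p = 0.272).

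Retn (chromosome 8, 3655770 to 3660110, plus strand) was found mainly in fat. No count was found in the 3 aortic LYVE1+ libraries, which allows a level of up to 0.0639 CPM over the group (3 counts of its total, counting error only), and the aortic LYVE1- libraries stood at 0.273, 0.168 and 0 CPM. The fat libraries stood at 3.56, 1.33 and 1.26 CPM in LYVE1+ cells and at 7.64, 1.15 and 0.988 in LYVE1- cells. All 6 fat libraries were above all 6 aortic ones. The mean was at least 32.1-fold higher in fat for LYVE1+ cells (adjusted p = 0.0353), and the call ended in 7 of 12 fits leaving out 1 library, namely without any single LYVE1+ library of either tissue or without aortic LYVE1- library 2, with adjusted p up to 0.0997. For LYVE1- cells the ratio was 22.2 (log2 fold change 4.38, SE 1.23, adjusted p = 0.0987), which did not pass, though it did by DESeq2 (adjusted p = 0.00487) and with no filter beyond 1 count (0.0271). Averaged over the sorts Retn was higher in fat (adjusted p = 0.00534) and stayed so in all 12 such fits. With the prefix in the model the call of Retn ended, in a fit that gave no usable error (SE 12310).

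The enzymes made up most of the counts. Car3 (chromosome 3, 14863512 to 14872523, plus strand) was the most abundant member by counts in 3 of the 4 groups. In aortic LYVE1- cells Scd1 had more (1374 counts against 629). Car3 stood at 4.05, 12.1 and 11.2 CPM in aortic LYVE1+ cells and at 8, 13.3 and 7.1 in aortic LYVE1- cells. In fat it stood at 146, 33.6 and 41.2 CPM in LYVE1+ cells and at 147, 66.5 and 56.8 in LYVE1- cells. Fat lay above aorta in every pair of libraries. The ratio of the means was 8.08 for LYVE1+ macrophages (log2 fold change 3.03, SE 0.58, adjusted p = 0.0157) and 9.53 in LYVE1- cells (3.24, SE 0.58, adjusted p = 0.0122). Averaged over the sorts the log2 fold change was 3.13 (SE 0.41, adjusted p = 0.000608), and this call held in all 12 fits leaving out 1 library. The LYVE1+ call of Car3 ended without aortic LYVE1+ library 1 (adjusted p = 0.0673) or 3, and the LYVE1- call without aortic LYVE1- library 1 or 3 (at most 0.0633). With the prefix in the model none of these passed: the value was 3.23 (adjusted p = 0.0516) for LYVE1+ cells, 3.78 (adjusted p = 0.519) for LYVE1- cells and 3.50 (adjusted p = 0.0832) for the average.

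Scd1 (chromosome 19, 44394455 to 44407879, minus strand) followed tissue less closely than Car3. It stood at 3.3, 3.2 and 8.21 CPM in aortic LYVE1+ cells and at 15.2, 32.8 and 10.8 in aortic LYVE1- cells. In fat it stood at 97.8, 14.9 and 16.8 CPM in LYVE1+ cells and at 89.4, 23.9 and 19.4 in LYVE1- cells. The tissues were apart in LYVE1+ cells and overlapped in LYVE1- cells. Neither sort passed the test for Scd1 (in LYVE1+ cells 3.11, SE 0.81, adjusted p = 0.0627, and 1.16, SE 0.74, adjusted p = 0.506 in LYVE1- cells). The average of the sorts passed (2.13, SE 0.55, adjusted p = 0.0304), and the call ended without both fat libraries numbered 1 (0.96, adjusted p = 0.0706). It ended in 6 of 12 fits leaving out 1 library: either fat library 1, aortic LYVE1+ library 1 or 2, or aortic LYVE1- library 1 or 3, with adjusted p up to 0.078. The prefix in the model gave 3.12 (adjusted p = 0.281). Of the 51-base windows of the Scd1 transcripts, 4.44% also occur in another gene (Scd2, Scd3, Scd4 and 1 unnamed gene model), so a small part of its reads could be shared.

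The droplet coat genes split. Cidec (chromosome 6, 113424634 to 113435760, minus strand) stood at 0.45, 0.0782 and 0.0708 CPM in aortic LYVE1+ cells and at 1.98, 2.08 and 3.06 in aortic LYVE1- cells. In fat it stood at 24.6, 5.82 and 3.88 CPM in LYVE1+ cells and at 16.6, 5.95 and 7.02 in LYVE1- cells. All fat libraries were above all aortic ones, and the aortic LYVE1+ libraries were the lowest of all. The ratio of fat to aorta was 57.2 for LYVE1+ macrophages (log2 fold change 5.62, SE 0.86, adjusted p = 0.00425) and 4.14 in LYVE1- cells (2.05, SE 0.69, adjusted p = 0.158, not passing). The LYVE1- value of Cidec passed by DESeq2 (adjusted p = 0.0459) and with no filter beyond 1 count (0.0336). The difference between these effects did not pass its own test (3.56, SE 1.06, adjusted p = 0.432). The LYVE1+ call of Cidec and that of the average (3.84, SE 0.55, adjusted p = 0.00116) held in all 12 fits leaving out 1 library. The LYVE1+ call ended with RMM libraries alone (5.24, adjusted p = 0.0712), and the average call with the prefix in the model (2.73, adjusted p = 0.622).

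Plin1 (chromosome 7, 79720218 to 79732903, minus strand), the perilipin of mature adipocytes, was near the limit of detection. It had no count in 6 of the 12 libraries, namely aortic LYVE1+ library 1, aortic LYVE1- libraries 1 and 3, fat LYVE1+ libraries 1 and 3, and fat LYVE1- library 2. The others spanned 0.142 to 2.59 CPM and the groups overlapped throughout. Fat LYVE1+ library 1, where Car3, Scd1 and Cidec were at or near their highest, had no Plin1 count, which allows up to 0.594 CPM there (counting error only). The log2 fold change between tissues was 0.53 (SE 2.00, adjusted p = 0.935) in LYVE1+ cells, 1.04 (SE 1.86, adjusted p = 0.86) in LYVE1- cells and 0.79 (SE 1.37, adjusted p = 0.792) on average. The libraries of a group differed widely, and none of these effects was larger than its standard error.

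The comparison of LYVE1+ with LYVE1- cells asks whether the transcripts follow the sort. In fat none of the 7 passed the test, where 3.93% of all genes were called. Their median log2 fold change was -0.31 (0.00 for all genes), and for each member the LYVE1+ and LYVE1- libraries overlapped (of all genes, 9.33% had all LYVE1+ libraries above and 10% all below). The values in fat were -0.31 (SE 0.48) for Cfd, -0.32 (SE 0.53) for Car3, -0.08 (SE 0.76) for Adipoq, -0.67 (SE 1.06) for Retn, -0.07 (SE 0.74) for Scd1, 0.18 (SE 0.66) for Cidec and -1.64 (SE 1.97) for Plin1. With the replicate number as a block in edgeR's quasi-likelihood test, none of the 7 passed in fat either (adjusted p = 0.538 for Cfd and 0.396 for Car3). Without the block, adjusted p over all 12 libraries was 0.765 or more in edgeR's quasi-likelihood test for every member. Leaving out 1 library, the lowest in that test were 0.143 for Car3, 0.238 for Scd1 and 0.262 for Cfd.

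In aorta none of the 7 passed in the same test, where 0.542% of all genes were called, and 6 of 7 log2 fold changes were negative, with a median of -1.12 (-0.01 for all genes). Cidec and Scd1 were both lower in LYVE1+ than in LYVE1- cells without overlap of the libraries, as were 10.9% of all genes. Cidec averaged 0.2 ± 0.217 CPM (SD, n = 3) in LYVE1+ and 2.38 ± 0.597 in LYVE1- cells, a ratio of 11.9 (log2 fold change -3.38, SE 0.83, adjusted p = 0.107). Scd1 averaged 4.91 ± 2.86 and 19.6 ± 11.6 CPM, a ratio of 3.99 (log2 fold change -2.02, SE 0.78, adjusted p = 0.339). The adjusted p of Cidec depended on the fit, whose spread is estimated from all 12 libraries. It was 0.0103 without both fat libraries numbered 1, 0.0253 without fat LYVE1+ library 1 alone, 0.00241 by DESeq2 and 0.00157 with no filter beyond 1 count, but 0.0914 with only the 2 aortic groups in the fit and 0.665 with the prefix in the model. For Scd1 it was 0.024 without both fat libraries numbered 1 and 0.00963 without the filter. Retn had no count in aortic LYVE1+ cells and averaged 0.147 ± 0.138 CPM in LYVE1- cells (adjusted p = 0.396). The values of the others that did not pass were -1.12 (SE 1.92) for Plin1, -0.79 (SE 0.56) for Cfd, -0.10 (SE 0.56) for Car3 and 1.31 (SE 0.81, adjusted p = 0.581) for Adipoq. In LYVE1- aortic cells all libraries carry the prefix RHH and in LYVE1+ cells only 1 does. The difference between tissues in the LYVE1 effect passed for none of the 7, against 0.155% of all genes.

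The shares of the 7 transcripts among their summed counts were close in both sorts of fat macrophages, and aortic LYVE1- cells stood apart. Of the members' counts in fat, Car3 took 48.5 ± 2.43% in LYVE1+ and 52.6 ± 5.3% in LYVE1- cells (SD, n = 3). Scd1 took 24.4 ± 5.64% and 22.5 ± 5.4%, and Cfd 14.7 ± 2.97% and 14.8 ± 2.85%. In aortic LYVE1+ cells the shares were 53.4 ± 11.6% for Car3, 30 ± 10.9% for Scd1 and 6.71 ± 1.76% for Cfd. In aortic LYVE1- cells Scd1 led with 55.5 ± 6.45%, followed by Car3 with 28.9 ± 3.67% and Cfd with 4.84 ± 0.69%. Cfd shares in fat (11.4% and above) lay above all aortic shares (8.6% and below), and Scd1 shares in aortic LYVE1- cells (48.5% and above) lay above all others (37.1% and below). These shares were not tested, since they follow from the levels above. The fat libraries numbered 1 had the highest summed level and, with 46.1% and 47%, the lowest Car3 share of their groups.

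**Figure D3:**
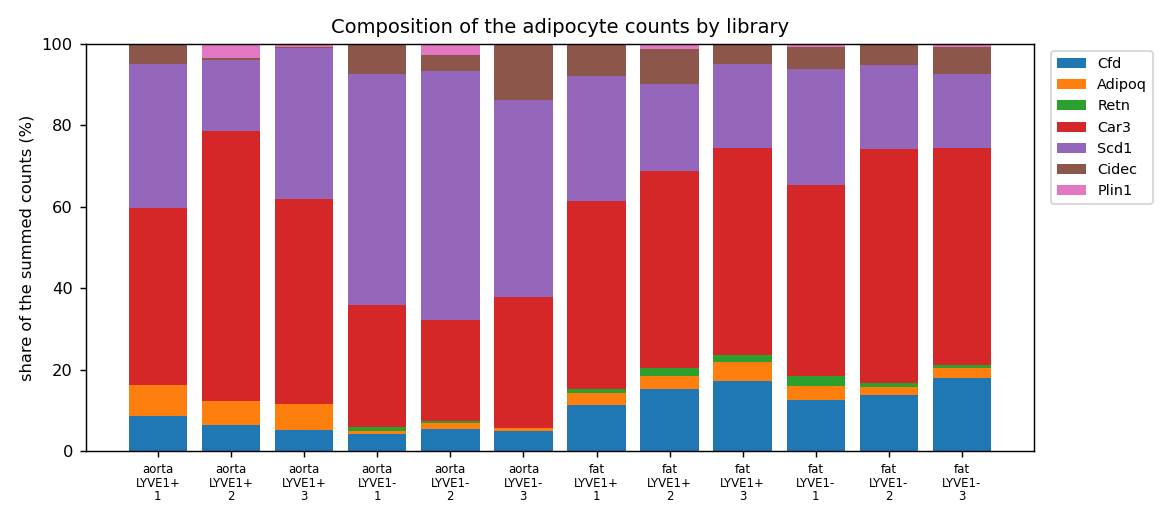
Share of each transcript in the summed counts of the 7 genes, in percent, for each of the 12 libraries. In the 6 fat libraries Car3 takes 46.1 to 57.5% and Cfd 11.4 to 18%, and Scd1 takes the largest share in the 3 aortic LYVE1- libraries.

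Levels between genes were compared per kilobase of exon. In fat Car3 and Cfd were of similar height, at 25.7 ± 22 and 22 ± 15.1 CPM per kb in LYVE1+ cells and at 31.5 ± 17.4 and 26.9 ± 13.6 in LYVE1- cells. Scd1 followed (8.82 and 9.04 CPM per kb in LYVE1+ and LYVE1- cells), then Cidec (6.15 and 5.3), Adipoq (3.54 and 3.73), Retn (1.3 and 2.06) and Plin1 (0.0655 and 0.242). Within single fat libraries, Cfd took 29.8 to 40.8% of the members' counts per length and Car3 36.6 to 45.6%, which overlapped, while Scd1 took 7.77 to 15.1%, below both in every fat library. In aorta Car3 (3.18 in LYVE1+ and 3.3 CPM per kb in LYVE1- cells) and, in LYVE1- cells, Scd1 (4) were highest.

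Close relatives of the members gave much larger levels in 3 families. Retnla, the resistin-like gene of alternatively activated macrophages, averaged 11082 CPM per kb in fat LYVE1+ cells against 1.3 for Retn, and was higher in fat in both sorts (log2 fold change 2.26, adjusted p = 0.000172, and 1.12, adjusted p = 0.00905). Retnlg, a neutrophil resistin-like gene, was also higher in fat LYVE1+ cells (5.51, adjusted p = 0.0327), and Retnlb had no count. None of the 51-base windows of the Retn transcripts occur in another gene. Plin2, the perilipin of macrophages and other cells, averaged 391 CPM per kb in fat LYVE1+ and 400.2 in fat LYVE1- cells against 0.0655 and 0.242 for Plin1, and Plin2 was higher in fat on average (0.83, adjusted p = 0.0269). Plin3, another perilipin of many cell types, averaged between 22.8 and 30.7 CPM per kb in the 4 groups and was also higher in fat on average (0.33, adjusted p = 0.0451), and Plin4 averaged between 0.0722 and 0.531 (1.66, adjusted p = 0.27). C1qa, C1qb and C1qc, which share a fold with adiponectin and are made by macrophages, lay between 1401 and 5529 CPM per kb in every group mean, against at most 3.73 for Adipoq. Scd2 averaged between 0.629 and 1.45 CPM per kb in the 4 groups and did not pass between tissues (average log2 fold change -0.13, adjusted p = 0.936), Scd3 had counts in 1 library and Scd4 in 2. Car2, which red cells carry, reached 42.6 CPM in fat LYVE1+ library 1, the library with the most red cell transcripts, and at most 7.86 elsewhere. Car4 stayed at or below 2.33 CPM. Cidea stayed at or below 2.32 CPM and Cideb averaged at most 0.0444 CPM per kb.

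For the gene lists that follow, the background is the share of all 14216 genes called. Averaged over the sorts, 3.62% were higher and 4.6% lower in fat. Without both fat libraries numbered 1, 944 of the 14216 genes were higher and 1192 lower. Of 21 other genes of adipocyte identity, 15 passed the filter on low counts. Averaged over the sorts 5 were higher in fat, none was lower, and the median log2 fold change was 1.72 against 0.01 for all genes. The 5 were Mrap (5.61, adjusted p = 0.0116), Lep (adjusted p = 0.0245), Trarg1 (3.76, adjusted p = 0.0282), Gpd1 (2.02, adjusted p = 0.0416) and Sncg (3.68, adjusted p = 0.0441). Lep, the leptin gene, had no count in any aortic library and reached 8.12, 0.416 and 0 CPM in fat LYVE1+ cells and 2.59, 1.92 and 0.297 in fat LYVE1- cells. None of the 15 passed within a single sort. The calls left without both fat libraries numbered 1 were Mrap and Lep, with a median of 0.75. Of 16 genes of fatty acid and triglyceride synthesis, 2 were higher in fat on average: Dgat2 (1.08, adjusted p = 0.0424) and Thrsp (2.78, adjusted p = 0.0462). The median of the 16 was 0.32. Without both fat libraries numbered 1 neither of these passed, while Acly (0.55, adjusted p = 0.00159) and Lpin1 (0.67, adjusted p = 0.0158) were called higher and Fasn lower (-0.81, adjusted p = 0.0365). Of 6 genes of lipolysis only G0s2 passed (2.36, adjusted p = 0.0237), and without those libraries only the lysosomal lipase gene Lipa (0.51, adjusted p = 0.00319). Of 7 genes that adipocytes and macrophages both make, 4 were higher in fat on average: Lpl (1.38, adjusted p = 0.00231), Fabp4 (2.40, adjusted p = 0.00279), Pparg (1.23, adjusted p = 0.0174) and Plin2. These 4 and Cd36 were called higher and Fabp5 lower without both fat libraries numbered 1. Lpl was lower in LYVE1+ cells in fat (-1.49, adjusted p = 0.0183) and in aorta (-1.81, adjusted p = 0.0237), as was Pparg (-1.93, adjusted p = 0.0169, and -2.39, adjusted p = 0.0209). Of 12 genes of lipid-associated macrophages, a state described in fat, 3 were higher in fat on average (Lpl, Fabp4 and Plin2) and none lower, with a median of -0.01. In fat 5 of these 12 were lower in LYVE1+ cells, as were 299 of all 14216 genes. Among the 5 were Lgals3 (-1.14, adjusted p = 0.00182), Lpl, Spp1 (-3.38, adjusted p = 0.0217) and Gpnmb (-2.28, adjusted p = 0.0244). Without both fat libraries numbered 1 the tissue calls of the 12 were 5 higher and 5 lower, the lower ones being Cd9, Gpnmb, Fabp5, Ctsk and Spp1.

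Of 10 brown adipocyte genes 5 passed the filter, and 2 were lower in fat macrophages on average, also without both fat libraries numbered 1. The other 3 did not pass, and the median of the 5 was -0.40 on average and 0.08 in LYVE1- cells. Dio2, the deiodinase of brown fat, stood between 1.34 and 9.37 CPM in the aortic libraries and had no count in any fat library (adjusted p = 0.000763). Ucp1, the uncoupling protein that defines brown adipocytes, stood between 0.205 and 3.05 CPM in the aortic libraries and at 0.198, 0.249 and 0 in fat LYVE1+ cells, with no count in fat LYVE1- cells (adjusted p = 0.0279). The 10 genes summed to between 8.75 and 15.6 CPM in aorta and between 3.88 and 9.69 in fat.

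Markers of other cells moved with the tissue beside the 7 transcripts. Mesothelial markers, of the lining of visceral fat, summed to at most 0.684 CPM in every aortic library and to between 4.94 and 22.6 in fat, and 3 of the 4 that passed the filter were higher in fat on average: Msln (adjusted p = 0.00883, no count in aorta), Upk3b (5.10, adjusted p = 0.00984) and Wt1 (5.70, adjusted p = 0.0162). Of 5 skeletal muscle markers 3 passed the filter. Acta1 was higher in fat on average (4.73, adjusted p = 0.00278), and Ckm (2.91, adjusted p = 0.0877) and Tnnt3 (0.65, adjusted p = 0.718) did not pass. Mb had no count in fat, and 4 and 19 counts in aortic LYVE1+ and LYVE1- cells. The 5 skeletal muscle markers summed to between 2.41 and 6.54 CPM in fat and at most 2.39 in aorta. Smooth muscle markers summed to between 23.1 and 73.2 CPM in aorta and to between 3.65 and 17.5 in fat, and 3 of 4 were lower in fat: Cnn1 (-6.94, adjusted p = 0.0029), Tagln (-1.56, adjusted p = 0.00526) and Acta2 (-3.57, adjusted p = 0.00746). Progenitor and fibroblast markers summed to between 704 and 2093 CPM in aorta and between 371 and 927 in fat, with Dpp4 higher in fat (2.53, adjusted p = 0.0115) and Col1a1 (-2.03, adjusted p = 0.000591), Pi16 (-1.69, adjusted p = 0.0152) and Col3a1 (-1.07, adjusted p = 0.0174) lower. Each gene named for these 4 lists as higher or lower was also called without both fat libraries numbered 1. No endothelial, T and NK, B or red cell marker was called on average, but without those libraries the endothelial gene Egfl7 was lower in fat (-3.07, adjusted p = 0.00188). The most abundant were Pecam1 and Vwf of the endothelial, Il7r and Nkg7 of the T and NK, and Hbb-bs and Hba-a1 of the red cell list.

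In the fat libraries numbered 1, where the adipocyte transcripts were highest, other lineages were high as well. T and NK cell markers summed to 130 and 58.5 CPM there against 4.56 to 9.39 in the other 4 fat libraries, and B cell markers to 452 and 162 against 18.7 to 36.6. Mesothelial markers stood at 22.6 and 15.5 against 4.94 to 7.95 CPM, and red cell transcripts at 25920 and 5271 against 211 to 287. Macrophage markers summed to 23924 and 22579 CPM against 29968 to 32519 in the other 4. Neutrophil markers summed to 3.17 and 1.16 CPM against 0 to 0.194 in the other 4 fat libraries and 0.0671 to 1.1 in aorta, with Ly6g at 0 in every library. The part of these cells in the levels of the 7 transcripts was not tested. In the other 4 fat libraries the 7 transcripts summed to between 69.3 and 116 CPM, above the 9.3 to 53.5 of aorta. In the same 4 libraries T and NK, B and red cell markers lay within the aortic range, and mesothelial (4.94 to 7.95 CPM) and skeletal muscle markers (2.41 to 6.33) above it. For skeletal muscle the gap was within counting error. The lowest of these libraries had 29 counts (interval 1.61 to 3.46 CPM), and the highest aortic one 35 counts (2.39 CPM, interval 1.67 to 3.33).

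**Figure D4:**
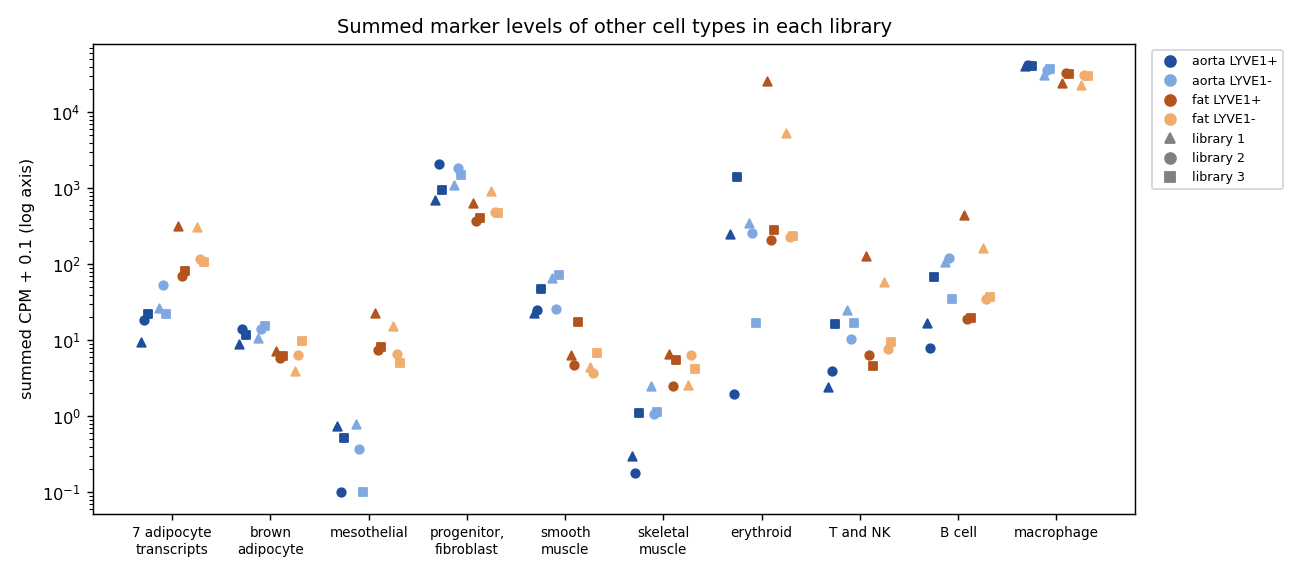
Summed level of the 7 transcripts and of marker lists of other cell types in each library, as CPM + 0.1 on a log axis. Symbols mark the library number. The triangles of fat stand out for red cell, T and NK, and B cell markers, and mesothelial markers lie higher in all fat libraries than in aorta.

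Across the 12 libraries the genes whose log2 CPM ran most like the log2 summed level of the 7 transcripts, among 10067 genes of at least 2 on the average log2 CPM scale, were Nfkbid (Pearson r = 0.966), Vamp2 (0.953), Fabp4 (0.948), Hdgfl3 (0.944), Avl9 (0.942), Ikbke (0.941), Rsrp1 (0.938), Sertad1 (0.937), Gm10925 (0.934) and mt-Tp (0.929). These are descriptions over 12 libraries that share tissue and the 2 outlying fat libraries. Without those libraries the r of the 10 genes was 0.852 to 0.941. Fabp4, the fatty acid binding protein of adipocytes and macrophages, was the only one of the 10 on the lists of lipid genes, at 3.89 to 8.46 CPM in aorta and 11.1 to 67.4 in fat. Among the members, Cfd and Car3 had the highest r over 12 libraries (0.979) and over the 6 of fat (0.979). Over the 6 of aorta theirs was 0.671, and Cfd and Plin1 had the highest (0.9). Plin1 had no count in several of these, and both genes peaked in aortic LYVE1- library 2 (87 counts of Cfd and 45 of Plin1). Cidec and Adipoq ran together in fat (0.835) and opposite in aorta (-0.844), with no test of either value. In aorta Cidec fell to 1 count (LYVE1+ libraries 2 and 3) and Adipoq to 3 counts (LYVE1- libraries 1 and 3).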

How the data were processed

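The deposited count table holds raw counts made by the authors, one whole number per gene and library. The deposited log2 CPM table was checked but not used for tests. STAR 2.5.2b, featureCounts 1.5.0, edgeR 3.14.0 and GRCm38 are named per the submitters' processing notes. Smart-seq2 libraries from 2 ng RNA were read with 51 cycles per end, per the labels' protocols. The annotation release, filters and strand setting are not given in the sources used here. Symbols and gene positions came from GENCODE M21 and covered 46005 of 46517 IDs. No annotated gene overlapped a member.

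Levels are CPM, each count scaled to its library total. Fits used edgeR 4.0.16 (quasi-likelihood, TMM factors, filterByExpr) on 14216 genes over all 12 libraries with 8 residual degrees of freedom. Adjusted p-values are Benjamini-Hochberg over all genes, and a gene was called at adjusted p below 0.05. All 7 members passed the filter. DESeq2 1.42.0 was an alternative. Intervals and detection limits cover counting error only. Replicates within a group differed by more than sampling noise (chi-square per degree of freedom of at least 7.64).

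The members and gene lists were chosen with earlier results of these data known. Other genes are named by a rule: up to 4 called genes per list by adjusted p in the average tissue comparison, or the 2 most abundant where none was called, every close relative of a member, and the 10 genes with the highest correlation. Genes called in other comparisons or without the fat libraries numbered 1, and Mb, Ckm, Tnnt3, Ly6g, Lepr, Adipor1, Adipor2 and the complement genes, were chosen after their values were seen. Single genes of the B cell list are not reported here. Same-numbered fat libraries deviated together (correlations of 0.486, 0.279 and 0.184). Fat libraries 2 and 3 did so across numbers as well (0.192 and 0.225). Deviations were taken from the mean of each group's 3 libraries. An outlying library 1 therefore moves libraries 2 and 3 the same way, and these correlations cannot show more than that. Only the fat libraries numbered 1 stood apart as a pair, with correlations of -0.366 to -0.269 to those of other numbers. A pairing by number is thus not shown for libraries 2 and 3. Same-numbered libraries of aorta did not deviate together (-0.0441, -0.0767 and -0.17).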

Additional observations from a re-analysis of the deposited data

How the results depend on the processing

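Counts of members called kept within 1.5 times of the reported number in 33 of 43 alternatives other than leaving out a library. These include comparisons in which the main fit called no member, where no call again counted as kept. With the library prefix in the model they were 2 (LYVE1+ tissue comparison), 0 (LYVE1-) and 1 (average), and with RMM libraries alone 1 (LYVE1+). For LYVE1- cells DESeq2 and no filter beyond 1 count each called 5. In aorta the LYVE1 comparison called 1 by DESeq2, 2 with no filter, 1 with the replicate block and 2 without both fat libraries numbered 1. Leaving out 1 library gave 2 to 5 members (LYVE1+ tissue comparison), 1 to 3 (LYVE1-) and 0 to 1 (LYVE1 in aorta).

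Counts over all genes moved more. For fat against aorta in LYVE1+ cells, 426 became 922 by DESeq2, 181 with the prefix, 820 with no filter, 94 with RMM libraries only, 216 with only the groups compared, 899 without both fat libraries numbered 1, and 179 to 550 leaving out 1 library. In LYVE1- cells 353 became 847, 7 and 647 (DESeq2, prefix, no filter), 1030 without the fat libraries numbered 1 and 104 to 542 leaving out 1. The average of 1168 became 1760 by DESeq2, 53 with the prefix and 2136 without the fat libraries numbered 1. LYVE1 in fat, with 558, became 1013 by DESeq2, 288 with RMM only, 175 with only fat libraries, 915 with the replicate block, 898 without the fat libraries numbered 1, and 224 to 1036 leaving out 1. LYVE1 in aorta, with 77, became 360 by DESeq2, 2 with the prefix, 336 with no filter, 21 with RHH only, 276 with only aortic libraries, 243 with the replicate block, 570 without the fat libraries numbered 1, and 20 to 213 leaving out 1. The difference between tissues in the LYVE1 effect, with 22, became 100, 0 and 72 (DESeq2, prefix, no filter), 86 without the fat libraries numbered 1, and 0 to 49 leaving out 1. The cause was not tested.

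Signs that turned belong to effects that passed no test. With the replicate block the LYVE1 effect in fat was 0.12 for Adipoq and -0.0755 for Cidec. Without both fat libraries numbered 1 it was 0.41 for Adipoq, 0.31 for Retn, -0.38 for Cidec and 0.28 for Plin1. Car3 in aorta gave 0.24 with the prefix and 0.24 with RHH libraries only. Plin1 between tissues gave -0.19 with a replicate block across tissues (LYVE1+) and -0.42 without both fat libraries numbered 1 (LYVE1-), and its difference between tissues in the LYVE1 effect gave 0.20 with the prefix and 1.42 without those libraries. Leaving out 1 library, the LYVE1 effect in fat ran from -0.95 to 0.17 (Cfd), -0.72 to 1.05 (Adipoq), -1.25 to 0.89 (Retn), -1.21 to 0.21 (Car3), -1.42 to 0.93 (Scd1) and -0.96 to 0.76 (Cidec). In aorta it ran from -0.33 to 0.26 (Car3) and -2.87 to 4.60 (Plin1). The difference between tissues in it ran from -0.22 to 0.95 (Cfd), -1.11 to 0.31 (Car3) and -6.24 to 1.23 (Plin1). Plin1 between tissues ran from -4.77 to 2.28 (LYVE1+), -0.41 to 6.76 (LYVE1-) and -1.87 to 3.64 (average).

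The summed level in aortic LYVE1+ cells was 7.47 CPM without Car3. The sums of the other groups fall without it as well. Car3 made up 28.9% of the members' counts in aortic LYVE1- cells, and 48.5 and 52.6% in fat LYVE1+ and LYVE1- cells. With counts divided by exon length, the share of Cfd was 18.9% and 16.2% in aortic LYVE1+ and LYVE1- cells and 35% and 35.5% in fat, that of Scd1 16.2%, 35.2%, 11.2% and 10.3%, and that of Car3 in fat 37.5% and 40.9%. The replicate block across tissues and the fits on libraries of 1 prefix were chosen after seeing the data. In aorta, where the numbers do not pair the libraries, the replicate block gave Cidec an adjusted p of 0.0274. Depth sets a floor for Plin1 and Retn, with 3 counts standing for 0.101 to 0.594 CPM per library.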

Other observations

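Adipor1, the adiponectin receptor, stood between 177 and 337 CPM over the 12 libraries and did not pass in any comparison (adjusted p = 0.0593 for LYVE1+ against LYVE1- in fat, log2 fold change 0.52). Adipor2 stood between 28.7 and 58.2 CPM. Cdh13, T-cadherin, which binds adiponectin, averaged 0.584 and 0.639 CPM in fat LYVE1+ and LYVE1- cells and 2.25 and 3.8 in aorta. It was the 1 receptor called among 6 tested, and was lower in fat on average (log2 fold change -2.24, SE 0.58, adjusted p = 0.0327 by edgeR's quasi-likelihood test). Lepr, the leptin receptor, had no count in any fat library.

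Of the alternative complement pathway, in which adipsin cleaves factor B, 5 of 6 genes passed the filter and none was called in any comparison. Without both fat libraries numbered 1, Cfb (0.91, adjusted p = 0.0011) and Cfp (0.47, adjusted p = 0.0108) were called higher in fat on average. Of all 14216 genes 944 were. Within LYVE1- cells 1 of the 5 was then higher and 1 lower in fat. The sort was called as well there: 2 of the 5 were higher in LYVE1+ cells in fat and 2 in aorta, against 410 and 236 of all genes. Cfp, the gene of properdin, stood between 1073 and 2266 CPM and the substrate gene Cfb between 4.79 and 48.4. Cfi had no count.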
